A study of Rattus with 6 samples.

Results

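Krt8, Krt18 and Krt19, which encode keratins of simple epithelia, and Cldn4 and Cldn9, which encode claudins of the tight junction, were followed through RNA sequencing of a rat pituitary tumour cell line. The genes were taken by symbol from the deposited table, where they account for 5 of 12801 genes and for 21 of 118147 exons. All 6 libraries came from RC-4B/C cells, a line derived from a rat pituitary adenoma. Of these, 3 were labelled ASA, acetylsalicylic acid (aspirin), and 3 were labelled DMSO, the solvent control. The labels used here give no dose, no duration and nothing on whether cultures were separate. The p-values therefore speak only to the spread among these libraries, and that spread may be technical. A second line of the series, GH3, is not analysed here.

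Keratins are the intermediate filament proteins of epithelial cells, and each filament is built from a type I keratin joined to a type II keratin. Krt8 is a type II keratin and Krt18 is its usual type I partner, the pair that appears earliest in simple epithelia. Krt19 is another type I keratin that can join Krt8. Claudins are membrane proteins whose extracellular loops close the space between neighbouring cells and set which ions pass. The hormone cells of the anterior pituitary arise from oral ectoderm and keep epithelial features.

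Levels are given as RPKM, the reads of a gene per kilobase of its listed exons and per 1000000 reads of the library. The depth that the table's values imply was 66492445 reads in ASA replicate 2 and between 82189699 and 94486062 in the other libraries. ASA replicate 2 stood apart, with 497 exons at 0 reads against 4 to 13 in each of the other libraries, and results of the 5 genes that rest on it are given with and without it. The cells carried pituitary transcripts, with Pou1f1, a transcription factor of the prolactin cell lineage, at 603 to 804 RPKM in ASA libraries and 584 to 714 RPKM in DMSO libraries. The epithelial adhesion gene Epcam had 103 to 186 RPKM in ASA libraries and 124 to 129 RPKM in DMSO libraries. In the limma test (two-sided, log2 scale after adding 0.1 RPKM, p adjusted by Benjamini-Hochberg over 12502 genes, threshold 0.05), 11.2% of all genes tested were called, 6.21% higher and 4.99% lower with ASA. An unadjusted p under 0.05 was found for 3753 of the 12502 genes.

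Of the 5 genes, Krt19 was lower and Cldn4 was higher in ASA than in DMSO libraries, and both passed the limma test. Krt8 was lower in every ASA library but missed the threshold. Krt18 and Cldn9 had ASA and DMSO libraries that overlapped. All 5 passed the filter of a mean RPKM of at least 0.5.

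**Figure D1:**
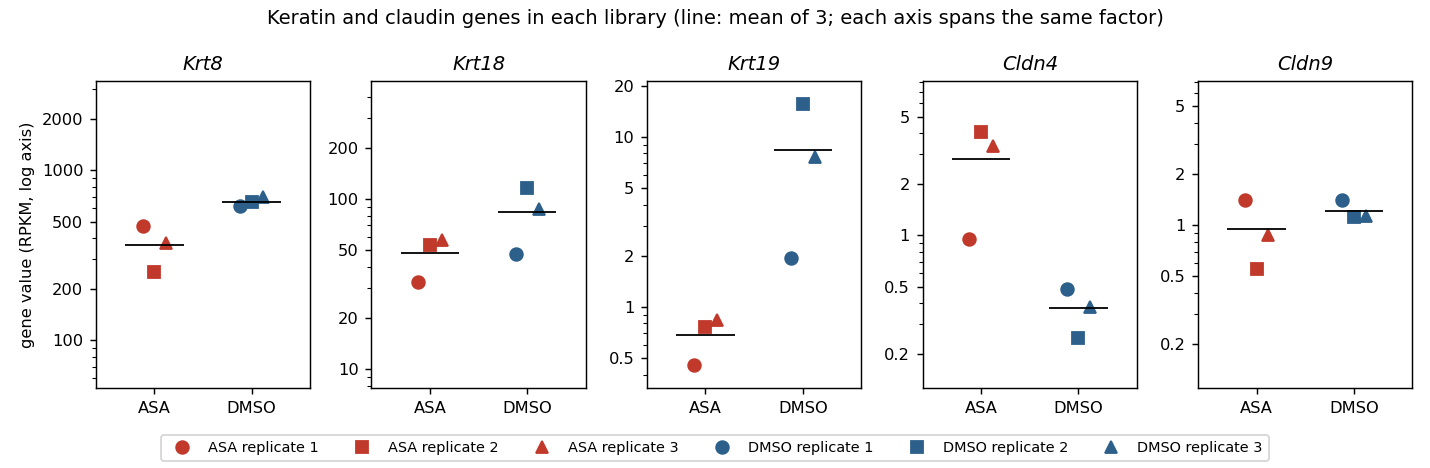
RPKM of each gene on a log axis in the 3 ASA libraries (red) and the 3 DMSO libraries (blue), with a line at the mean of each group and the same span on every axis. The ASA libraries lie below every DMSO library for Krt8 and Krt19 and above every DMSO library for Cldn4.

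Krt8 was the most abundant of the 5 genes and stood at percentile 98.5 of all genes by mean RPKM. It had 468, 252 and 375 RPKM in ASA replicates 1, 2 and 3, against 616, 655 and 698 RPKM in DMSO replicates 1, 2 and 3. The lowest DMSO library lay above the highest ASA library. The groups likewise did not overlap for 38.7% of all genes tested. The means were 365 ± 109 RPKM in ASA and 656 ± 40.8 RPKM in DMSO libraries (SD, n = 3 each). The log2 fold change was -0.89 ± 0.25 (SE, limma), with an adjusted p of 0.0594. The spread within ASA came with ASA replicate 2, which held the lowest value. Krt8 passed the threshold without ASA replicate 2 (log2 fold change -0.65, limma adjusted p = 0.0361) and without ASA replicate 1 (-1.09, adjusted p = 0.0298). Those fits called 20.9% and 16.2% of all genes. With any 1 library removed, its adjusted p was never below 0.0298 nor above 0.228. After scaling each library by its median ratio Krt8 also passed (limma adjusted p = 0.0421), in a fit that called 12.6% of all genes. Reads behind these values numbered 24256 to 62457 in ASA libraries and 78040 to 92966 in DMSO libraries, so counting error is small beside the spread between libraries.

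Krt18, the partner of Krt8, had 32.7, 53.5 and 57.4 RPKM in ASA replicates 1, 2 and 3, against 47.3, 117 and 87.4 RPKM in DMSO replicates 1, 2 and 3. DMSO replicate 1 lay within the ASA range, so the groups overlapped. The log2 fold change was -0.75 ± 0.37 (SE, limma), with an adjusted p of 0.212, and removing any 1 library did not bring it past the threshold (adjusted p 0.124 to 0.467). Without DMSO replicate 1 the log2 fold change was -1.12, and without DMSO replicate 2 it was -0.47.

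The ratio of Krt8 to Krt18 RPKM differed between libraries more than between groups. It was 14.3, 4.7 and 6.53 in ASA replicates 1, 2 and 3, and 13, 5.62 and 7.98 in DMSO replicates 1, 2 and 3. Replicate 1 of each group was high and replicate 2 of each group was low, and the replicate numbers only name the libraries. The difference of the mean log2 ratio was -0.14 (exact permutation test, two-sided, p = 0.8, where 0.1 is the smallest p that 3 against 3 libraries allow). It was 0.21 without ASA replicate 2 and 0.18 without DMSO replicate 1, so its direction depended on single libraries. The level of Krt8 against Krt18 is uncertain for a further reason, since a RefSeq gene table (assembly GRCr8) lists 1 pseudogene named for Krt8 and 6 named for Krt18. The sources used here do not say how reads that match both a gene and such a copy were counted. None of these copies had a row in the table.

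Krt19 had 0.455, 0.764 and 0.838 RPKM in ASA replicates 1, 2 and 3, against 1.95, 15.6 and 7.61 RPKM in DMSO replicates 1, 2 and 3. All 3 ASA libraries were below the lowest DMSO library, and the DMSO libraries spread widely, with DMSO replicate 1 far below the other two. The means were 0.686 ± 0.204 RPKM in ASA and 8.37 ± 6.84 RPKM in DMSO libraries (SD, n = 3 each). Krt19 was 8.19-fold lower by the log2 means (log2 fold change -3.03 ± 0.71 SE, limma adjusted p = 0.0383). These values rest on 28, 34 and 49 reads in ASA replicates 1, 2 and 3, and on 123, 856 and 468 reads in DMSO replicates 1, 2 and 3.

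The call for Krt19 depended on which libraries were in the fit. It held without ASA replicate 2 (limma adjusted p = 0.0392) and without DMSO replicate 1 (0.044), where Krt19 was 14.3-fold lower. Those fits called 20.9% and 0.728% of all genes. The call was lost without ASA replicate 1 (limma adjusted p = 0.0618), ASA replicate 3 (0.124), DMSO replicate 2 (0.0891) or DMSO replicate 3 (0.163). These fits called 16.2%, 0%, 5.06% and 0% of all genes. Krt19 was 5.18-fold lower without DMSO replicate 2. With limma voom on the recovered reads, a test added after the data were seen, the adjusted p was 0.0518. With 1 RPKM added in place of 0.1, Krt19 was 4.47-fold lower (limma adjusted p = 0.0459).

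Set against Krt18, the other type I keratin, Krt19 was a smaller part in ASA libraries. The ratio of Krt19 to Krt18 RPKM was 0.0139, 0.0143 and 0.0146 in ASA replicates 1, 2 and 3, against 0.0411, 0.134 and 0.087 in DMSO replicates 1, 2 and 3. The 3 ASA ratios lay below every DMSO ratio. They rest on 28, 34 and 49 reads of Krt19, too few to say how close the ASA ratios are to each other. This ratio was chosen after its values were seen and was not tested.

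Nearly all keratin exons had a log2 fold change below 0, where the median over all exons was -0.08. Exons of 1 gene come from the same libraries and are not independent. Krt8 had rows for 9 exons, and all 9 had a negative log2 fold change, between -1.33 and -0.66. The ASA and DMSO libraries did not overlap in 7 of them, a state found in 33.9% of all exons. Krt18 had rows for 7 exons, of which 6 had a negative log2 fold change and exon 2 had 0.17 ± 0.88 (SE). The ASA and DMSO libraries overlapped in all 7 exons of Krt18. Krt19 had rows for exons 4, 5 and 6 of the 6 exons that its identifier counts, so its gene value covers only these. Their log2 fold changes were -3.23, -3.45 and -3.17. They had 2 to 20 reads each in ASA libraries. A row needed over 10 reads in at least 4 libraries, so each of these exons needed DMSO libraries to be listed. The ASA and DMSO libraries overlapped in none of these 3 exons.

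None of the 21 exons passed the exon-level limma test on the deposited log2 values, where 2.28% of all 118147 exons were called, 1.49% higher and 0.791% lower. The smallest adjusted p of the 21 exons was 0.0655, for exon 6 of Krt19. Without ASA replicate 2, 9 exons passed and all 9 were lower, namely all 3 of Krt19 and exons 1, 3, 5, 6, 8 and 9 of Krt8. That fit called 16.6% of all exons, and 6.38% of all exons were called lower. Without ASA replicate 1, only the single exon of Cldn4 passed (limma adjusted p = 0.0486), where 2.46% of all exons were called. No exon of the 5 genes passed in the other 4 fits that left out a library, which called 0% to 0.417% of all exons.

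Levels differed widely among the exons of 1 gene. In Krt8, exon 9, which holds the 5′ end since the gene lies on the minus strand, had 768, 660 and 614 RPKM in ASA replicates 1, 2 and 3 and 1010, 1100 and 1110 RPKM in DMSO replicates 1, 2 and 3. Exons 2, 6 and 7 of Krt8 averaged 6.67, 10 and 5.21 RPKM over the 6 libraries, which is 0.761%, 1.14% and 0.595% of exon 9. In Krt18, exons 2 and 5 averaged 2.38% and 5.09% of exon 1. These 5 exons were low in ASA and in DMSO libraries alike. Whether reads matching the pseudogenes account for this was not tested. Leaving such low exons out of the gene value, an alternative added after the data were seen, raised Krt8 to 294 to 549 RPKM in ASA and 722 to 818 RPKM in DMSO libraries and left its log2 fold change at -0.89.

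**Figure D2:**
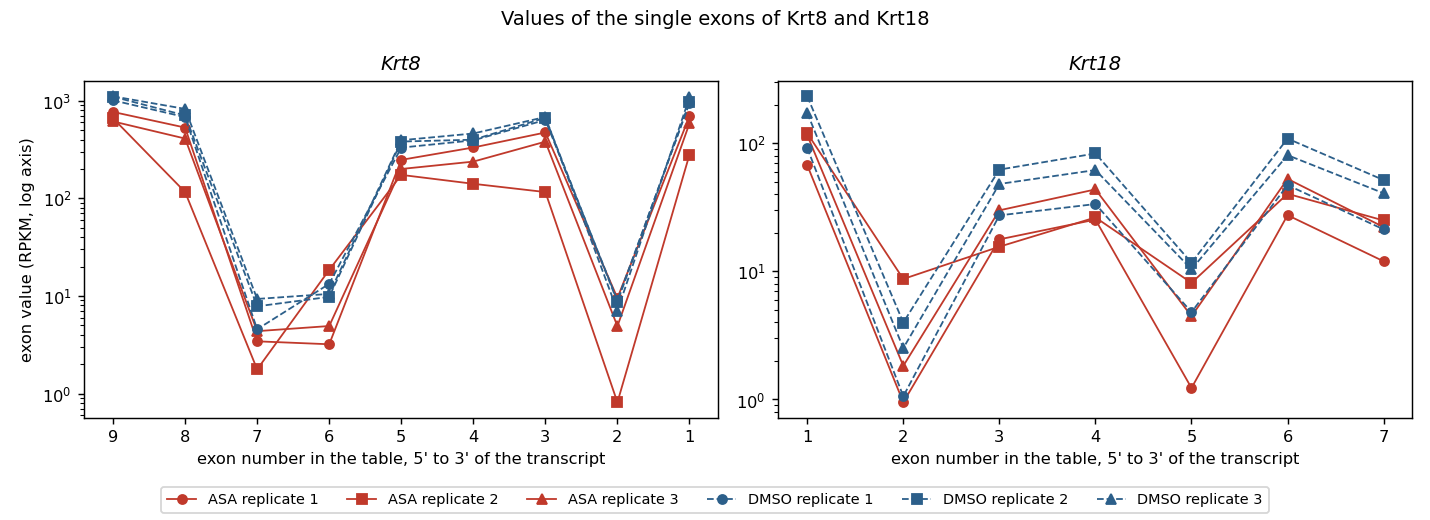
RPKM of each listed exon of Krt8 (left) and Krt18 (right) on a log axis, from the 5′ to the 3′ end of the transcript, with 1 line per library, ASA in red and DMSO in blue. Exons 2, 6 and 7 of Krt8 and exons 2 and 5 of Krt18 are low in all 6 libraries, and ASA replicate 2 departs from the profile of the other libraries.

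ASA replicate 2 had an uneven profile over the keratin exons. Relative to the DMSO mean, its log2 values scattered over the exons of Krt8 with an SD of 1.21, against 0.1 to 0.55 in the other 5 libraries. For Krt18 the SD was 1.13, against 0.06 to 0.57. The low exons are included, and they held the largest departures of ASA replicate 2. These were -3.33 in exon 2 of Krt8 (3 reads) and 1.99 in exon 2 of Krt18 (48 reads). Among the higher exons of Krt8, exons 3 and 8 of ASA replicate 2 had 116 RPKM each, while its exon 9 had 660 RPKM, within the range of the other ASA libraries.

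Cldn4, a claudin of tight epithelia such as the collecting duct, had 0.948, 4.08 and 3.38 RPKM in ASA replicates 1, 2 and 3, against 0.487, 0.251 and 0.38 RPKM in DMSO replicates 1, 2 and 3. Every ASA library was above every DMSO library, and ASA replicate 1 was the nearest to them. The means were 2.8 ± 1.64 RPKM in ASA and 0.373 ± 0.118 RPKM in DMSO libraries (SD, n = 3 each), which is 5.36-fold higher by the log2 means (log2 fold change 2.42 ± 0.58 SE, limma adjusted p = 0.0409). Cldn4 was a weakly expressed gene at percentile 8.67 of all genes. It had 55, 171 and 186 reads in ASA replicates 1, 2 and 3, and 29, 13 and 22 reads in DMSO replicates 1, 2 and 3.

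Cldn4 kept its call without ASA replicate 1 (8.25-fold higher, limma adjusted p = 0.0153) and without ASA replicate 2 (4.13-fold, adjusted p = 0.0468). Those fits called 16.2% and 20.9% of all genes. Cldn4 lost its call without ASA replicate 3 (limma adjusted p = 0.147) or any single DMSO library (0.11 to 0.162), in fits that called 0% to 5.06% of all genes. With 1 RPKM added in place of 0.1, Cldn4 was 2.57-fold higher (limma adjusted p = 0.0485). Even its highest ASA library was far below the level of Krt8 or Krt18.

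Cldn9, a claudin known in mice for its role in the inner ear, had 1.4, 0.554 and 0.879 RPKM in ASA replicates 1, 2 and 3, against 1.4, 1.12 and 1.14 RPKM in DMSO replicates 1, 2 and 3. ASA replicate 1 and DMSO replicate 1 were the highest of their groups and the groups overlapped. The log2 fold change was -0.41 ± 0.42 (SE, limma adjusted p = 0.533), and -0.11 without ASA replicate 2. Its reads numbered 24 to 84 in ASA and 60 to 86 in DMSO libraries. A difference in Cldn9 was not detectable in these libraries.

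**Figure D3:**
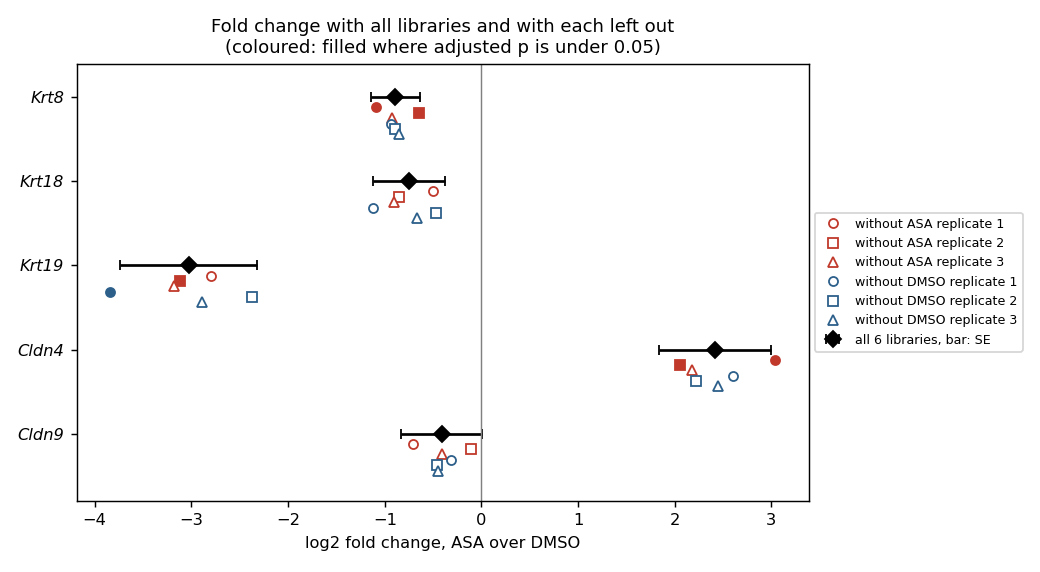
Log2 fold change of ASA over DMSO for each gene with all 6 libraries (black, bar: SE) and with each library left out (coloured, filled where the limma adjusted p is under 0.05). The sign of each gene is the same in all 7 fits, from -3.84 to -2.37 for Krt19 and from 2.05 to 3.04 for Cldn4, while Krt18 and Cldn9 have no filled symbol.

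The order of the levels, per kilobase of exon, differed between the groups at its low end. In ASA libraries it ran Krt8, Krt18, Cldn4, Cldn9 and Krt19, and in DMSO libraries Krt8, Krt18, Krt19, Cldn9 and Cldn4. In ASA libraries Cldn4 overlapped Cldn9 and Cldn9 overlapped Krt19, so these neighbours did not differ beyond their spread. In DMSO libraries no neighbours overlapped. The single listed exons of Cldn4 and Cldn9 and the 3 of Krt19 span 630, 651 and 669 bases, so each level rests on a short stretch.

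The 5 genes did not share 1 profile over the libraries. Across the 6 libraries, Pearson's r of log2(RPKM + 0.1) was 0.92 between Krt18 and Krt19, and 0.95 after the group means were subtracted, since both were lowest in replicate 1 of each group. Between Krt8 and Krt18 it was 0.44, and -0.27 after the group means were subtracted. Krt8 and Cldn4 had an r of -0.95, and -0.81 after the group means were subtracted. Krt8 and Cldn9 had 0.82 and 0.89, both with ASA replicate 2 as the lowest library. Without that library r was -0.96 for Krt8 with Cldn4 (-0.88 after the group means were subtracted), 0.42 for Krt8 with Cldn9 (0.58) and 0.94 for Krt18 with Krt19 (0.96). For Krt8 with Krt18 it was 0.56 (-0.18). These values are descriptions over 6 libraries that share depth and handling.

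The genes with the nearest profile, by the smallest root mean square difference of centred log2(RPKM + 0.1) among 11024 genes, differed for each of the 5. For Krt8 they were Dmap1, Pja1 and Sri, at 0.048 to 0.066. For Krt18 they were Ecel1, Il1rapl2 and Greb1, at 0.119 to 0.162. For Krt19 they were Cox4i2, Cyp11a1 and Rgs5, at 0.391 to 0.448, with a Pearson's r of 0.975, 0.969 and 0.97. The distance is not scaled to the range of a gene, so its size cannot be compared between the 5. For Cldn4 they were Fnip2, Tmco4 and Sat1, at 0.249 to 0.309. For Cldn9 they were Abcb8, Mif4gd and Prep, at 0.059 to 0.062. Without ASA replicate 2, Dmap1 was still the nearest to Krt8, Ecel1 and Il1rapl2 were the nearest to Krt18, and Rgs5 and Cox4i2 were the nearest to Krt19. The other 10 genes ranked between 5 and 17.

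On chromosome 7 Krt8 (ENSRNOG00000009779) spans 143596728 to 143603745 on the minus strand and Krt18 (ENSRNOG00000047393) spans 143629495 to 143633071 on the plus strand, counted over the listed exons in Rnor_6.0. They are 25749 bases apart with no other listed gene between them. Krt19 (ENSRNOG00000014233) spans 88057068 to 88060504 of chromosome 10, and Krt14, another type I keratin, lies 57673 bases away. Cldn9 (ENSRNOG00000003654) spans 13003428 to 13004078 of chromosome 10, and Cldn4 (ENSRNOG00000001476) spans 24761401 to 24762030 of chromosome 12.

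Among the 7 other keratin genes of the table, 1 fell and none rose, where 11.2% of all genes tested were called. Their median log2 fold change was -0.56, beside -0.06 over all genes tested. Krt79, a type II keratin, had 1.88, 0.834 and 1.01 RPKM in ASA replicates 1, 2 and 3, against 7.92, 11.8 and 5.96 RPKM in DMSO replicates 1, 2 and 3. It was 6.55-fold lower (limma adjusted p = 0.0156), and removing ASA replicate 3, DMSO replicate 1 or DMSO replicate 3 ended the call (adjusted p 0.0122 to 0.0898 with any 1 library removed). The fits that ended it called 0% to 0.728% of all genes. Krt7, the type II keratin of ducts and glands, was as abundant as Krt8, with 467, 267 and 403 RPKM in ASA replicates 1, 2 and 3 and 622, 668 and 650 RPKM in DMSO replicates 1, 2 and 3. Its log2 fold change of -0.81 missed the threshold (limma adjusted p = 0.0663) and its ratio to Krt8 lay between 0.931 and 1.08 in all 6 libraries. Krt80 stood at -1.56 on the log2 scale (limma adjusted p = 0.14) and Krt14 at -0.56 (0.315). Krt17 at 0.47 (0.423) and Krt10 at 0.43 (0.629) lay the other way, and Krt71 was at -0.53 (0.497). The table lists 3 exons under both Krt14 and Krt17, so the values of these 2 genes are uncertain. Krt7 and Krt8 each made up 43.1% to 47.7% of the summed RPKM of the 10 keratins in ASA libraries and 44.3% to 47.8% in DMSO libraries.

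Among the 6 other claudins 1 rose and none fell, where 11.2% of all genes tested were called. Their median log2 fold change was 0.57, beside -0.06 over all genes tested. Cldn12 had 17.7, 29.6 and 22.4 RPKM in ASA replicates 1, 2 and 3, against 11.8, 11.4 and 10.7 RPKM in DMSO replicates 1, 2 and 3. It was 2-fold higher (limma adjusted p = 0.0444), and removing ASA replicate 3 or any single DMSO library ended the call (adjusted p 0.0263 to 0.198 with any 1 library removed). The fits that ended it called 0% to 5.06% of all genes. The log2 fold change was 0.75 for Cldn7 (limma adjusted p = 0.225), 0.69 for Cldn6 (0.232) and 0.45 for Cldn1 (0.396). Cldn20 was at 0.21 (0.774), and Cldn3 lay the other way at -0.3 (0.417). Cldn4 made up 1.01% to 2.9% of the summed RPKM of the 8 claudins in ASA libraries and 0.259% to 0.513% in DMSO libraries. Cldn9 made up 0.394% to 1.49% in ASA and 1.14% to 1.47% in DMSO libraries, so neither was a major claudin transcript of these cells. Cldn1 was the most abundant claudin in every ASA library and in DMSO replicate 1, and Cldn3 in DMSO replicates 2 and 3.

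**Figure D4:**
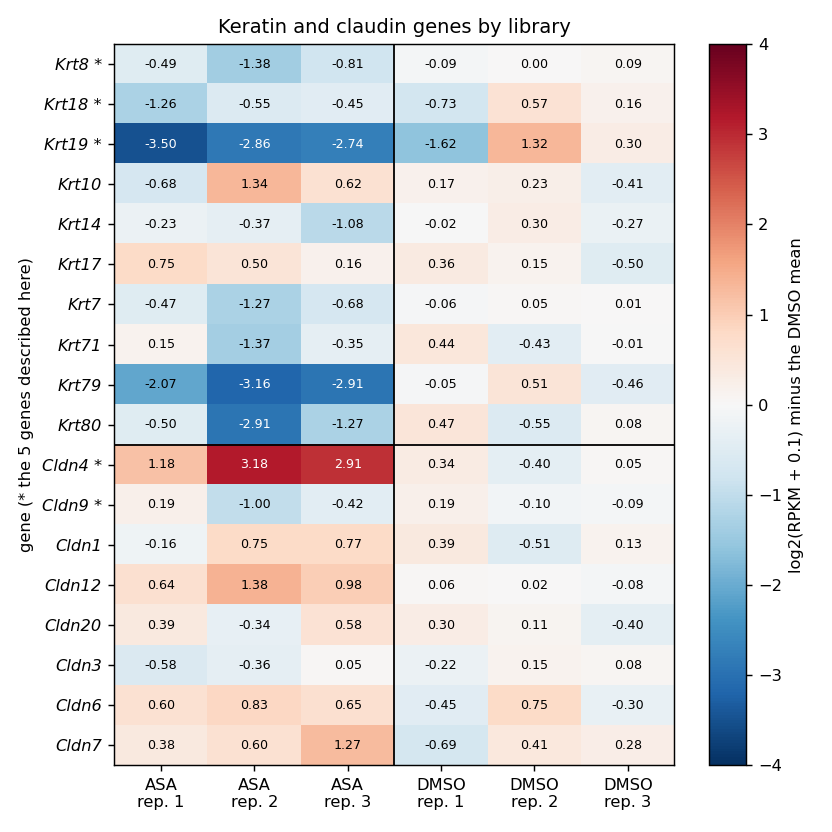
Log2(RPKM + 0.1) minus the DMSO mean for the 10 keratins and 8 claudins of the table, with the ASA libraries left of the DMSO libraries and the 5 genes described here starred. By the ASA mean, Krt19 and Krt79 are the lowest keratins and Cldn4 is the claudin highest with ASA, at 1.18 to 3.18 above the DMSO mean.

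The genes of cell junctions, of keratin linkage and of epithelial control were read beside the 11.2% of all genes called. Of 13 tested genes of the desmosome and of keratin linkage, limma called 0, with 3 at an unadjusted p under 0.05 (3753 of all 12502 genes) and a median log2 fold change of -0.25. With limma voom on the recovered reads the number was also 0. Desmoplakin, Dsp, which ties keratin to the desmosome, had 61, 49.5 and 95.2 RPKM in ASA replicates 1, 2 and 3 and 30.7, 38.9 and 36.4 RPKM in DMSO replicates 1, 2 and 3 (log2 fold change 0.91, adjusted p = 0.0657). The log2 fold change was 0.71 for Itgb4, the hemidesmosome integrin (limma adjusted p = 0.117), -0.46 for Pkp4, a plakophilin of cell junctions (0.127), and 0.43 for the plakoglobin gene Jup (0.212). Without ASA replicate 2, 3 of these genes passed, in a fit that called 20.9% of all genes.

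Of 28 tested partners of the claudins in the tight junction 3 rose and 1 fell, with a median log2 fold change of 0.06. The scaffold gene Tjp3, also known as ZO-3, was 3.66-fold higher (41.5 ± 13.8 RPKM in ASA and 10.9 ± 2.06 RPKM in DMSO libraries, SD, n = 3 each, limma adjusted p = 0.0178). The polarity gene Crb3 was 2.14-fold and Amotl1 2.3-fold higher. Magi1, a scaffold of cell junctions, was 3.2-fold lower. The number past the threshold was 8 when ASA replicate 2 was removed (20.9% of all genes called) and 2 when DMSO replicate 2 was removed (5.06%). Removing any of ASA replicate 3, DMSO replicate 1 and DMSO replicate 3 left 0, in fits that called 0% to 0.728% of all genes.

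Of 16 tested genes of the adherens junction and the epithelial surface 2 fell and none rose, with a median log2 fold change of -0.23. St14, the membrane protease matriptase, was 2.45-fold lower (limma adjusted p = 0.0401) and beta-catenin, Ctnnb1, 1.59-fold lower (adjusted p = 0.0467). Spint1, an inhibitor of matriptase, did not pass (log2 fold change 1.14, adjusted p = 0.0735). Removing ASA replicate 3, or any DMSO library, left 0 of these genes past the threshold, in fits that called 0% to 5.06% of all genes. Cdh1, the gene of E-cadherin, had no row and was not analysed here.

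Of 15 tested transcription and splicing factors of epithelia 1 rose and 1 fell, with a median log2 fold change of 0.31. Elf3, an epithelial factor of the ETS family, had 3.25, 3.24 and 1.9 RPKM in ASA replicates 1, 2 and 3, against 11.2, 22 and 13.4 RPKM in DMSO replicates 1, 2 and 3, which is 5.32-fold lower (limma adjusted p = 0.0151). The zinc finger gene Klf6 was 4.84-fold higher (adjusted p = 0.0318). Without ASA replicate 2 Klf6 was 3.24-fold higher. The number past the threshold was 5 when ASA replicate 2 was removed (20.9% of all genes called), 4 for ASA replicate 1 (16.2%) and 1 for DMSO replicate 2 (5.06%). Removing any of the other 3 libraries left 0, in fits that called 0% to 0.728% of all genes.

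Of 5 tested repressors of epithelial genes limma called 0, and 3 had an unadjusted p under 0.05 (3753 of all 12502 genes), with a median log2 fold change of -0.51. With limma voom the number was also 0. Snai1, which represses E-cadherin, had 1.72, 4.23 and 3.23 RPKM in ASA replicates 1, 2 and 3 and 0.872, 1.19 and 0.952 RPKM in DMSO replicates 1, 2 and 3 (log2 fold change 1.44, adjusted p = 0.0631). The other two were lower in every ASA library, with a log2 fold change of -0.85 for the basic helix-loop-helix gene Tcf4 (limma adjusted p = 0.0574) and of -0.87 for the homeobox gene Prrx1 (0.113). Of 9 tested genes of the other intermediate filaments 1 rose and 1 fell, with a median log2 fold change of -0.28. An unadjusted p under 0.05 was found for 5 of the 9. The neurofilament gene Nefm was 3.54-fold higher and the lamin gene Lmnb1 3.18-fold lower (limma adjusted p = 0.0288 and 0.0349). Below the threshold, the log2 fold change was -1.45 for the neurofilament gene Nefh (limma adjusted p = 0.0588) and -2.64 for the lamin gene Lmnb2 (0.0765), neither of them called. Vim, the vimentin gene of mesenchymal cells, was near the filter, with 1.11 to 2.55 RPKM in ASA and 1.6 to 2.51 RPKM in DMSO libraries.

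**Figure D5:**
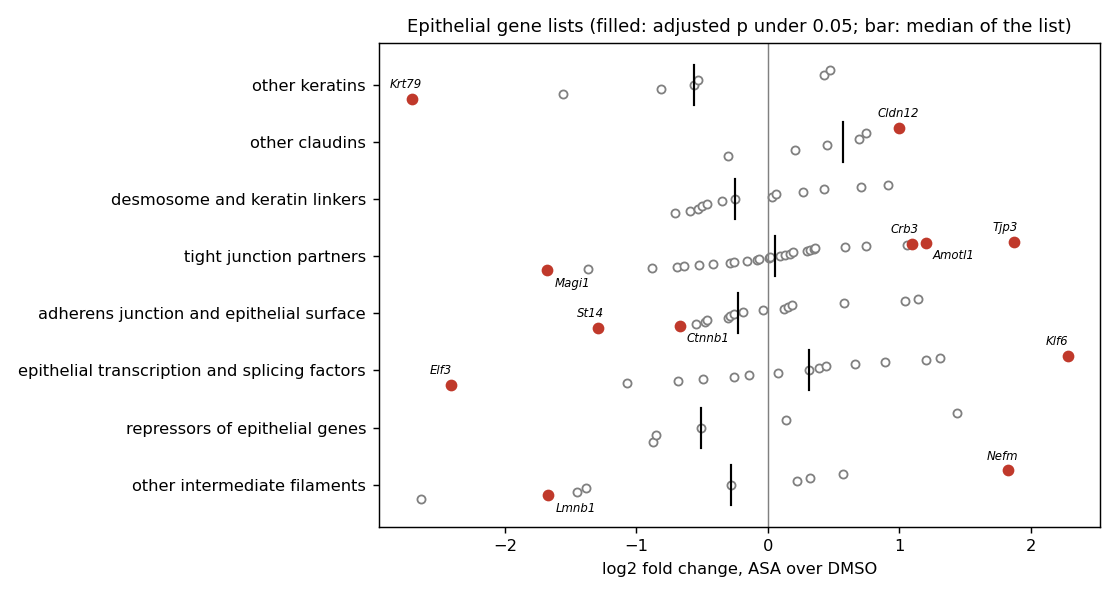
Log2 fold change of ASA over DMSO of each tested gene in 8 gene lists, filled and named where the limma adjusted p is under 0.05, with a bar at the median of the list. Called genes lie on both sides of 0 in the tight junction, transcription factor and intermediate filament lists, and Krt79, Elf3 and Klf6 lie farthest out among the called genes.

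In bulk RNA a smaller share of cells with a transcript and less of it in each cell cannot be told apart, for every value above. Of 10 pituitary hormone cell markers 9 had rows. Their summed level was 21600 to 65100 RPKM in ASA and 27800 to 67700 RPKM in DMSO libraries. The prolactin gene Prl made up most of it in every library, from 14000 RPKM in ASA replicate 1 to 62200 RPKM in DMSO replicate 2. The prohormone convertase gene Pcsk2 was the called gene of that list, at 14.7 to 23.7 RPKM in ASA and 41.3 to 47.4 RPKM in DMSO libraries (2.35-fold lower, limma adjusted p = 0.0232). Of 8 markers of folliculostellate cells, the support cells of the pituitary, Anxa1 and Vim had rows, and their summed level was 448 to 690 RPKM in ASA and 1120 to 2060 RPKM in DMSO libraries, nearly all of it from Anxa1. S100b and Sox2, which define those cells, had no row. Of 7 fibroblast markers 3 had rows, with a summed level of 2140 to 3280 RPKM in ASA and 1110 to 1170 RPKM in DMSO libraries, nearly all of it from Dcn, and the collagen genes Col1a1 and Col3a1 had no row. Of 7 endothelial markers 1 had a row, at 0.693 to 0.825 RPKM in ASA and 0.311 to 0.865 RPKM in DMSO libraries, and Pecam1 had none. Of 7 macrophage markers 2 had rows and summed to 7.04 to 23.5 RPKM in ASA and 21.5 to 36.5 RPKM in DMSO libraries, and Csf1r and Ptprc had no row. Anxa1 was 3.18-fold lower (limma adjusted p = 0.0228) and Dcn 2.49-fold higher (adjusted p = 0.0213). The part of these markers in the keratin and claudin results was not tested.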

How the data were processed

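The RNA was poly(A)-selected for strand-specific libraries, per the labels' protocols. Per the submitters' processing notes, the tools were cutadapt 1.14, Trim Galore 0.4.1, Bowtie2, TopHat2 2.1.0 and edgeR 3.26.8, without their roles, and the build was Rnor_6.0. No source used here gives the counting tool or its strand setting. The authors deposited log2 RPKM per exon. Undone, the values summed to 1000344 per library, including a constant of 0.00292 reads per 1000000 per exon. With it removed, 95.7% to 96.8% of values were whole reads within 0.02 read. Every row had over 10 reads in at least 4 libraries, so an exon of 1 group alone cannot appear. Gene RPKM was summed from listed exons. Printed exon values keep the constant. The test was limma 3.58.1 (R 4.3.3) with a mean-variance trend on log2(RPKM + 0.1), for genes averaging 0.5 RPKM or more, tested on simulated data. Alternatives were pseudocounts, filters, scaling, trend, quality weights, the median exon and each library left out. Chosen after seeing the data were limma voom on recovered reads, a separate limma fit leaving out low exons, and profiles without ASA replicate 2. Exons were tested as deposited, all 118147. The fold change comes from log2 means and understates low genes. The genes, lists and tests were chosen with earlier results of these data known. One gene was taken out of the list of epithelial factors after its values were seen and is not reported here. The named genes are the 5, up to 4 of each list by smallest p, and 3 nearest profiles per gene. Others (Epcam, Vim, Cdh1, Cldn3, Cldn20, Krt10, Krt17, Krt71) were added after values were seen.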

Additional observations from a re-analysis of the deposited data

How the results depend on the processing

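No paired analysis was possible because the labels give no replicate numbers that the groups share. With each library left out in turn, the genes past the threshold numbered 0 to 2618, against 1400 with all 6. They numbered 0 without ASA replicate 3 and without DMSO replicate 3 by limma, where 2924 and 2342 genes had an unadjusted p under 0.05. Over these fits the keratins and claudins described numbered 0 to 3 past the threshold and their exons 0 to 9. The lists had 0 to 2 other keratins, 0 to 1 other claudins, 0 to 3 desmosome genes, 0 to 8 tight junction partners, 0 to 3 adherens junction genes, 0 to 5 epithelial factors, 0 to 3 repressors and 0 to 5 other intermediate filament genes. The difference in log2 ratio of Krt8 to Krt18 ran from -0.59 to 0.21, and was reversed at 0.21 without ASA replicate 2 and at 0.18 without DMSO replicate 1.

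In the gene fit, library quality weights were 0.105 for ASA replicate 2, 8.71 for DMSO replicate 3 and 0.536 to 1.91 for the others. Such weights put the genes past the threshold at 5745 and called 3 of the 5 genes and 16 of the 21 exons. Those fits called 46.0% of all genes and 37.8% of all exons. The 3 genes were Krt8 (limma adjusted p = 0.00118), Krt19 (0.00269) and Cldn4 (0.000776). With these weights the calls were 3 other keratins, 3 other claudins, 4 desmosome genes, 14 tight junction partners, 8 adherens junction genes, 9 epithelial factors, 4 repressors and 6 other intermediate filament genes. Median-ratio scaling called 2 other keratins, 0 other claudins, 1 desmosome gene and 1 adherens junction gene, beside 12.6% of all genes. The median exon called 0 other claudins, 0 adherens junction genes and 1 repressor, beside 7.57% of all genes. The fit without a trend called 1 repressor, beside 9.03% of all genes. Limma voom, added after seeing the data, called 1 of the 5 genes (Cldn4, adjusted p = 0.0465), 0 other claudins and 1 adherens junction gene. That fit called 11.1% of all genes. The cause of these shifts was not tested. Of the 64 genes that the naming rule took, 2 markers that passed no test changed sign: Lum (-0.23 on the log2 scale, -0.57 to 0.18 with each library left out) and Vwf (0.28, -0.1 to 0.51, and -0.03 with the median exon). The log2 fold change of Krt19 was -2.16 and of Cldn4 1.36 with 1 RPKM added, and both kept their calls. With 3 libraries a group and 28 to 49 reads of Krt19 in ASA libraries and 13 to 29 reads of Cldn4 in DMSO libraries, the size of both differences is imprecise.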
